A study of Mus musculus with 8 samples.

Results

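The subunits of the mitochondrial respiratory chain that are encoded in the nucleus were followed in 4 primary cultures of mouse hind limb muscle. Members were all probe sets of the MOE430A and MOE430B arrays whose single current gene symbol starts with Nduf, Uqcr, Cox4, Cox5, Cox6, Cox7, Cox8 or Atp5, or is Sdha, Sdhb, Sdhc or Sdhd. This rule reads names only, and it gave 179 probe sets of 90 genes, out of 18193 genes named on the arrays. Of the 90 genes, 84 passed the filter on dim signals and were tested, out of 12278 genes tested in all. On the probe set used for each gene, no tested member lay below the array median in both PP6 cultures or in both MACS cultures. None of these probe sets was thus kept through 1 group alone. The other 6 were Ndufb1, Cox7c, Cox7a1, Cox8b, Cox6b2 and Cox7b2.

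The cells were submitted as possible stem cells of muscle, and the comparison asks how their transcripts differ with the way they were purified. PP6 replicates 2 and 3 were obtained by preplating, a serial transfer that parts slowly adhering cells from those that settle early. For PP6 the labels give 6500000 and 6700000 cells and RNA at 35 and 15 ng/ul, and no purity. The MACS cultures, replicates 2 and 3, were sorted with magnetic beads as Sca1+/CD45- cells, with 1980000 and 2040000 cells and RNA at 55 and 65 ng/ul. Flow cytometry put the MACS cells at over 80% Sca1+ and under 1% CD45+. All 4 cultures were grown in F10 Ham with 20% FBS at 37 C and 5% CO2, their RNA was not amplified, and muscle cells are given as the contaminating type in both preparations. The labels do not state a mouse strain, an age or whether the replicates came from separate animals, so p-values measure only the spread between these cultures, which may be technical.

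The respiratory chain passes electrons from NADH and succinate to oxygen and uses the energy to pump protons across the inner mitochondrial membrane. Complex I oxidises NADH, complex II is succinate dehydrogenase, complex III passes electrons to cytochrome c, complex IV reduces oxygen, and complex V makes ATP from the proton gradient. Heart and skeletal muscle replace some complex IV subunits with isoforms of their own, which are switched on as muscle matures. The nuclear genes of the chain are known targets of the transcription factors NRF1 and GABPA, and the coactivator PGC-1 raises many of them together.

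Signals are MAS5 intensities, and each gene is given by 1 probe set as log2 signal. A difference is the mean of the 2 PP6 cultures minus the mean of the 2 MACS cultures, with its standard error (SE) from limma. Because probe sets bind with different strength, a signal is read across cultures and not between genes. In RNA from whole cultures, fewer cells of a type and less RNA per cell cannot be told apart. The 4 arrays of each type had trimmed means of about 1500 and shared 1 lot, 1 hybridisation day and 1 scan day, so none of these separates the groups, and each culture had a fluidics module of its own.

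No respiratory chain gene passed an adjusted p of 0.05 in limma, in either direction. The smallest adjusted p of a member was 0.256, and no gene on the arrays passed either, which makes the background 0% in each direction, 0% higher and 0% lower. With p left unadjusted and under 0.05, 5 of the 84 member genes were higher in PP6, against a background of 5.81% of all tested genes, and 4 were lower, against 5.44%. These shares of 5.95% and 4.76% are close to the background. Both PP6 cultures lay above both MACS cultures for 25 members, which is 29.8% against 23.8% of all tested genes. They lay below both for 9 members, which is 10.7% against 21.9%.

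Most differences of the chain were small. The difference was within 0.5 log2 units for 71 of the 84 tested members, or 84.5%, against 67.9% of all tested genes. It was above 0 for 61 members, or 72.6%, against 51.4%, and its median was 0.16 against 0.02 for all tested genes. Of the 43 members with 2 or more tested probe sets, 22 had probe sets that differed in sign. With dim genes included, 9881 of all 18193 genes were above 0 and their median was 0.06. Of all 90 members, dim ones included, 64 were above 0 and the median was 0.16. The per-culture values show where this median comes from. Relative to the mean of the MACS cultures, the median member stood at 0.19 in PP6 replicate 2, 0.13 in PP6 replicate 3, 0.14 in MACS replicate 2 and -0.14 in MACS replicate 3. Both PP6 cultures were thus level with MACS replicate 2, and MACS replicate 3 was the low one. Without MACS replicate 3 the median difference was -0.01, and without MACS replicate 2 it was 0.30. For 54 of the 84 members, or 64.3%, the difference between preparations was smaller than the gap between the 2 MACS cultures, against 52.4% of all tested genes.

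The lower signal of MACS replicate 3 ran through most of the complexes. MACS replicate 2 was above MACS replicate 3 for 62 of the 84 tested members, or 73.8%, against 49.4% of all tested genes. The median member was 0.27 log2 units lower in MACS replicate 3 than in MACS replicate 2, while the median of all tested genes differed by 0.01. The signals of the member genes summed to 1036483 and 1013943 in PP6 replicates 2 and 3, and to 997544 and 813630 in MACS replicates 2 and 3. The 2 MACS cultures also lay at opposite ends of a measure of RNA integrity, the signal at the 3′ end of a control transcript over that at its 5′ end. On MOE430A the ratio for Gapdh was 6.65 and 10.3 in PP6 replicates 2 and 3, and 12.1 and 5.34 in MACS replicates 2 and 3. For Actb it was 4.24 and 4.83 in PP6, and 4.95 and 3.38 in MACS. MACS replicate 2 had the highest and MACS replicate 3 the lowest of the 4 ratios for both transcripts, on MOE430B as well. The part of RNA integrity in the result was not tested.

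**Figure D1:**
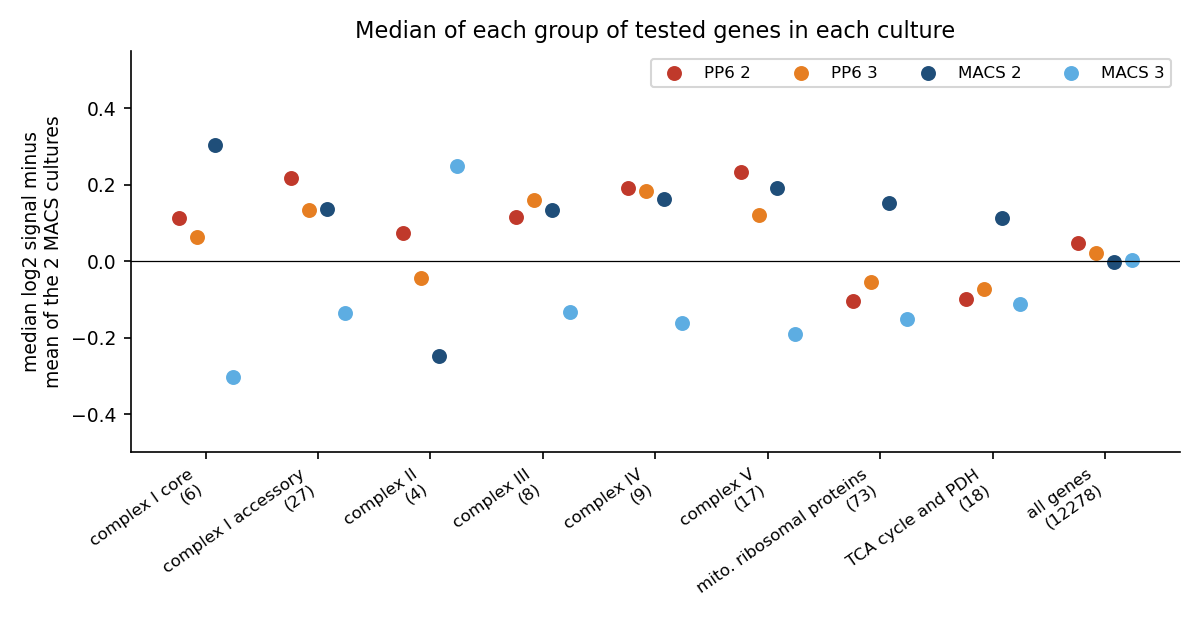
Median log2 signal of each group of tested genes in each culture, minus the mean of the 2 MACS cultures, with the number of tested genes under each name. PP6 replicates 2 and 3 and MACS replicates 2 and 3 are drawn as points from left to right. MACS replicate 3 is the lowest point of complexes I, III, IV and V and of the mitochondrial ribosomal proteins, and the highest of complex II.

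The core subunits of complex I, which hold its flavin and iron-sulfur clusters, had a median difference of 0.09 over 6 tested genes. Ndufs3 was the highest of them, at 12.33 and 12.13 in the PP6 cultures and 12.39 and 11.48 in the MACS cultures, a difference of 0.30 ± 0.35 (SE). Ndufv1, which binds NADH and the flavin, stood at 12.73 and 12.44 in PP6 against 12.96 and 12.89 in MACS. It was the 1 core subunit of 6 with both PP6 cultures below both MACS cultures (16.7%, against 21.9% of all tested genes), and 0 were above (against 23.8%). Its difference was -0.34 ± 0.21 (SE, limma adjusted p 0.597). The other tested probe sets of Ndufv1 gave -0.15 and 0.04, and the cultures overlapped on both. Ndufv2, which carries an iron-sulfur cluster, showed the gap inside the MACS group most clearly. Its signals were 13.54 and 13.46 in PP6, against 13.94 and 12.83 in MACS, so the PP6 cultures lay between the 2 MACS cultures. Ndufs8, another iron-sulfur subunit, differed by 0.17 ± 0.29, and its 6 tested probe sets ran from -0.32 to 0.59.

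The accessory subunits surround the core of complex I and are needed to build or hold it. Of 27 tested, 18 were above 0, with a median difference of 0.13. Ndufv3 stood at 14.27 and 14.32 in PP6, against 13.49 and 13.64 in MACS, a difference of 0.74 ± 0.19 (SE, adjusted p 0.328). Ndufa13, also known as GRIM-19, stood at 13.79 and 14.04 in PP6, against 13.23 and 13.07 in MACS, a difference of 0.76 ± 0.21 (adjusted p 0.334). Ndufa1, which is required to assemble the membrane arm, stood at 15.16 and 15.14 in PP6, against 14.70 and 14.63 in MACS, a difference of 0.49 ± 0.19 (adjusted p 0.427). For these 3 genes the groups did not overlap and replicates lay within 0.25 log2 units of each other, so the gap between the MACS cultures was small for them. Ndufb10 had the largest difference of the tested accessory subunits, 0.95 ± 0.53. It was at 11.15 and 11.11 in PP6 and at 10.96 and 9.41 in MACS, so its size comes from MACS replicate 3, and without that culture it was 0.17.

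Both PP6 cultures were above both MACS cultures for 8 of the 27 tested accessory subunits, or 29.6%, against 23.8% of all tested genes. They were below both for 4, or 14.8%, against 21.9%, and Ndufc2 differed most among these 4. Ndufc2, a subunit of the membrane arm, stood at 13.30 and 13.38 in PP6, against 14.31 and 13.75 in MACS, a difference of -0.69 ± 0.25 (SE, adjusted p 0.412). Its 4 tested probe sets ran from -0.69 to 1.31, but the probe set at 1.31 passed the filter through PP6 alone, where it is high. The remaining probe sets gave -0.44 and 0.18, so the direction of Ndufc2 rests on the probe set chosen. Ndufab1, the mitochondrial acyl carrier protein, stood at 11.08 and 11.28 in PP6, against 11.60 and 11.38 in MACS. Its difference was -0.31 ± 0.25, and its 3 tested probe sets ran from -0.31 to 0.92. The probe set at 0.92 also passed the filter through PP6 alone, and the remaining probe set gave -0.15. Ndufb6, at -0.26 ± 0.22, was below 0 on both of its tested probe sets. Ndufb1 was too dim to test, at signals of 747 and 551 in PP6 against 53.3 and 514 in MACS, and its difference of 1.95 follows from the single low value of MACS replicate 2.

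Assembly factors of complex I, which build the enzyme and leave it, carry the Nduf name and so fall under the rule. Their median difference was -0.04 over 8 tested genes, and they held the largest differences below 0 of the tested members. Ndufaf4 stood at 11.13 and 10.77 in PP6, against 12.69 and 11.69 in MACS, a difference of -1.24 ± 0.39 (SE, adjusted p 0.368). Ndufaf6 stood at 10.54 and 8.90 in PP6, against 11.02 and 11.40 in MACS, a difference of -1.49 ± 0.58 (adjusted p 0.424). The groups did not overlap for either gene, but PP6 replicate 3 was much the lower PP6 culture for Ndufaf6, and without it the difference was -0.67. Ndufaf2 was at -0.45 ± 0.35, while Ndufaf1, Ndufaf3 and Ndufaf7 were at 0.42 ± 0.32, 0.56 ± 0.49 and 0.31 ± 0.46.

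Complex II, the only complex shared with the tricarboxylic acid cycle, did not follow the order of cultures seen in the others on the probe sets used. Its 4 subunits had a median difference of 0.11, and MACS replicate 3 was above MACS replicate 2 for 3 of the 4. Sdha, the flavoprotein that oxidises succinate, stood at 12.77 and 12.55 in PP6, against 13.06 and 13.35 in MACS, a difference of -0.55 ± 0.22 (SE, adjusted p 0.433). The groups did not overlap on this probe set, but the other tested probe sets of Sdha gave -0.02 and 1.73. On the probe set at -0.02, MACS replicate 2 was above MACS replicate 3, at 12.55 against 12.47. The order of the MACS cultures for Sdha thus rests on the probe set chosen. The probe set at 1.73 passed the filter through PP6 alone, where it is high. Sdhb, the iron-sulfur subunit, differed by 0.17 ± 0.24. The membrane anchors Sdhc and Sdhd differed by 0.41 ± 0.47 and 0.06 ± 0.33, and the cultures overlapped for all 3.

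Complex III had 8 tested genes, with differences between -0.11 and 0.34 and a median of 0.14. Uqcr11, a small subunit, stood at 12.30 and 12.21 in PP6, against 12.19 and 11.65 in MACS, a difference of 0.34 ± 0.26 (SE). Uqcrq, another small subunit, was at 0.26 ± 0.21, and in these 2 of the 8 both PP6 cultures were above both MACS cultures, which is 25% against 23.8% of all tested genes. On the probe set used for each gene, none of the 8 was below without overlap, against 21.9%. The 4 tested probe sets of Uqcrq ran from -0.34 to 0.58, and on the probe set at -0.34 both PP6 cultures lay below both MACS cultures. The core subunits Uqcrc1 and Uqcrc2 differed by -0.11 ± 0.20 and -0.05 ± 0.22. Cyc1, the cytochrome c1 gene that the rule does not take in, differed by -0.06 ± 0.19.

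Complex IV, without its muscle isoforms and other paralogues, had 9 tested genes with a median difference of 0.16, and both PP6 cultures were above both MACS cultures for 4 of them, or 44.4%, against 23.8% of all tested genes. On the probe set used for each gene, no subunit had both PP6 cultures below both MACS cultures, against 21.9%. Cox5b, a subunit on the matrix side, stood at 16.03 and 15.88 in PP6, against 15.52 and 15.44 in MACS, a difference of 0.48 ± 0.20 (SE, adjusted p 0.458). Its 5 tested probe sets ran from 0.38 to 0.50. Cox6b1, which lies where the enzyme's dimer meets, stood at 15.90 and 15.79 in PP6, against 15.49 and 15.17 in MACS, a difference of 0.52 ± 0.22 (adjusted p 0.459). Its other tested probe set gave 0.62, so these 2 genes have the same direction on every probe set tested. Cox6c was at 0.41 ± 0.25 and Cox8a at 0.35 ± 0.23, and each had a tested probe set below 0. On that of Cox8a, at -0.18, both PP6 cultures lay below both MACS cultures, so its direction rests on the probe set chosen. Cox4i1, the common form of the largest nuclear subunit, differed by 0.16 ± 0.24, and Cox5a by -0.13 ± 0.27. The other tested probe sets of Cox5a gave 0.02 and 0.55, and the groups did not overlap on the probe set at 0.55. Cox7c, one of the smallest subunits, was below the array median in every culture on both of its probe sets and was not tested.

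Complex V, the ATP synthase, had 17 tested genes with a median difference of 0.10, and 16 of them were within 0.5 log2 units of 0. Atp5a1 and Atp5b, of the catalytic head, differed by 0.03 ± 0.21 and -0.06 ± 0.26. The other tested probe sets of Atp5a1 gave 0.12 and -0.21, and the groups did not overlap on the probe set at -0.21. Atp5e, which sits in the central stalk, had the largest difference, 0.76 ± 0.35 (SE, adjusted p 0.486). It stood at 11.94 and 12.15 in PP6, against 11.73 and 10.83 in MACS, so its groups did not overlap and MACS replicate 3 was the low culture. Atp5h, of the peripheral stalk, stood at 15.45 and 15.29 in PP6, against 15.10 and 14.84 in MACS, a difference of 0.41 ± 0.21. The other tested probe set of Atp5h gave -0.01. Atp5md, a small membrane subunit, stood at 11.99 and 11.92 in PP6 and at 11.59 in both MACS cultures, a difference of 0.36 ± 0.22. Atp5g1, Atp5g2 and Atp5k were the furthest below 0, at -0.21 ± 0.47, -0.08 ± 0.29 and -0.19 ± 0.25, and their cultures overlapped.

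**Figure D2:**
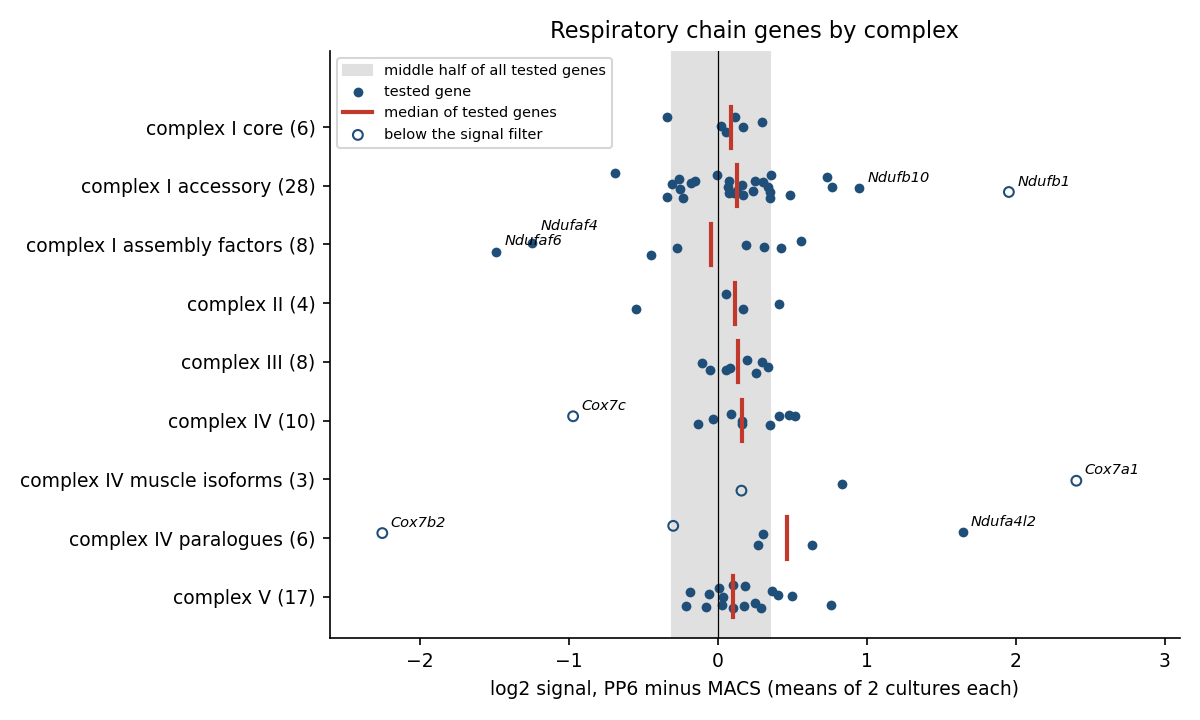
Differences in log2 signal, PP6 minus MACS, for the 90 member genes by complex, with the number of genes in brackets. Filled points are tested genes, open points are genes below the signal filter, red bars are the medians of tested genes, and the grey band runs from the first to the third quartile of all tested genes. Most tested members lie within 0.5 of 0, and Ndufa4l2, Ndufaf4 and Ndufaf6 lie beyond 1.

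Ndufa4l2 stood apart among the paralogues of complex IV. It encodes a relative of Ndufa4, a protein named for complex I and now counted with complex IV, and in other cells Ndufa4l2 is a known target of the hypoxia factor HIF-1. Its log2 signal was 14.54 and 14.47 in PP6, against 12.58 and 13.14 in MACS. Both PP6 cultures were above both MACS cultures by more than the gap within either group. The difference was 1.64 ± 0.25 (SE), or 3.12-fold, with the smallest p of all members and an adjusted p of 0.256. The difference stayed between 1.37 and 1.94 in all alternative settings and with each culture left out, and the adjusted p ran from 0.0693 to 0.532. Ndufa4 stood at 12.77 and 12.35 in PP6, against 12.59 in both MACS cultures, a difference of -0.03 ± 0.23. The log2 ratio of Ndufa4l2 to Ndufa4 was higher in PP6 by 1.67, with an exact two-sided permutation p of 0.333, the smallest that 2 cultures against 2 allow. The probe sets of this pair lie on different array types.

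Of the other paralogues, only Cox8c and Cox7a2l had more than 1 tested probe set, and the values of Cox7a2l were the more even. Cox7a2l encodes a factor that joins complexes III and IV into supercomplexes, and stood at 14.54 and 14.00 in PP6, against 13.56 and 13.72 in MACS. The groups did not overlap, the difference was 0.63 ± 0.25 (SE, adjusted p 0.427), and its 3 tested probe sets ran from 0.61 to 0.88. Cox4i2, the form of Cox4 found in lung and induced at low oxygen, differed by 0.27 ± 0.42, and its ratio to Cox4i1 was higher in PP6 by 0.11 (exact permutation p = 1). Cox8c, known from testis, differed by 0.30 ± 0.23 and had a second tested probe set below 0. Cox6b2 and Cox7b2, also testis forms, were below the array median in all 4 cultures and have no tested value. Cox7b2 had signals of 152 and 108 in PP6 against 514 and 721 in MACS.

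**Figure D3:**
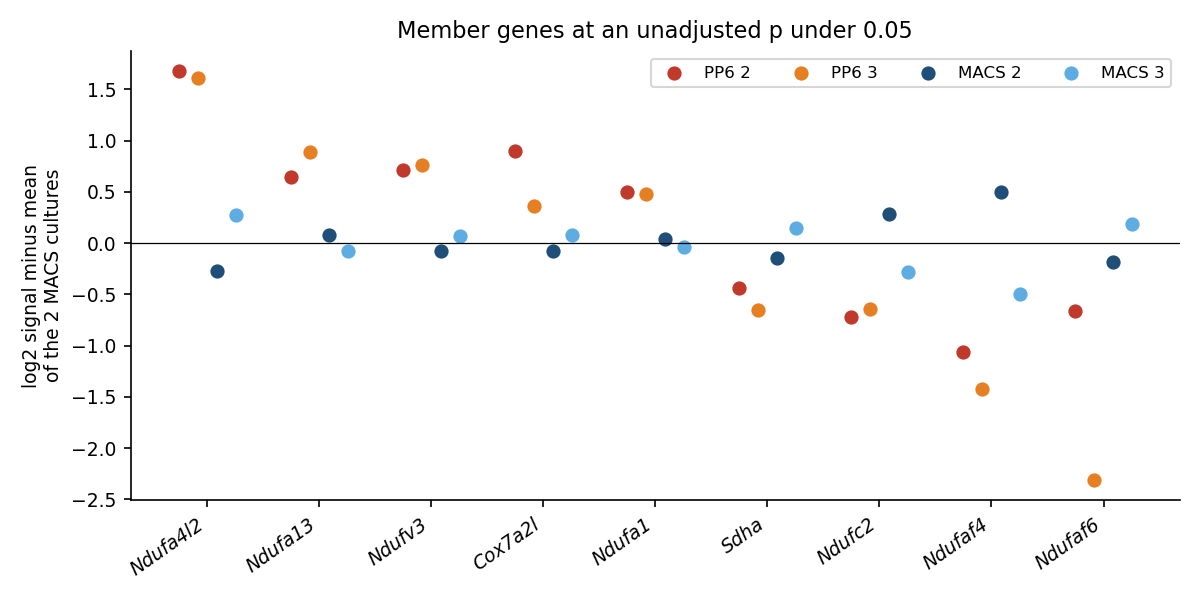
Log2 signal minus the mean of the 2 MACS cultures for the 9 member genes at an unadjusted p under 0.05, with PP6 replicates 2 and 3 left of MACS replicates 2 and 3. Each point is 1 culture. Ndufa4l2 has the largest gap above 0, and for Ndufaf6 PP6 replicate 3 lies far below PP6 replicate 2.

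Of the 3 muscle isoforms of complex IV, only Cox6a2, the heart and muscle form of Cox6a, passed the filter on dim signals. It stood at 9.76 and 10.50 in PP6, against 9.64 and 8.96 in MACS. Both PP6 cultures were above both MACS cultures, by 0.83 ± 0.48 (SE, adjusted p 0.570), but PP6 replicate 2 was close to MACS replicate 2. A second probe set of Cox6a2, not tested for its low signal, gave -0.56. Against Cox6a1, the form of other tissues, the log2 ratio of Cox6a2 was higher in PP6 by 0.74 (exact permutation p 0.333). Cox6a1 itself stood at 15.23 and 15.31 in PP6, against 15.28 and 15.08 in MACS, a difference of 0.09 ± 0.20.

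Cox7a1 and Cox8b never reached the median of their arrays, which was a signal of 622 and 630 in PP6 and of 566 and 582 in MACS. Cox7a1, the muscle form of Cox7a, had signals of 568 and 213 in PP6, against 25.9 and 166 in MACS. Both PP6 values were above both MACS values, and the difference of 2.41 log2 units was the largest of all members, but it rests on the value of MACS replicate 2 and was 1.07 without it. With signals under the array median raised to that median, the difference was 0.13. The ratio of Cox7a1 to Cox7a2 was higher in PP6 by 2.25 log2 units, with an exact permutation p of 0.667. Cox8b, the muscle form of Cox8 in rodents, had signals of 35.7 and 179 in PP6, against 80.0 and 64.2 in MACS. PP6 replicates 2 and 3 were the lowest and the highest of the 4, and the ratio of Cox8b to Cox8a was lower in PP6 by 0.19 (exact permutation p = 1). Without detection calls, a dim signal is not shown to be above background.

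**Figure D4:**
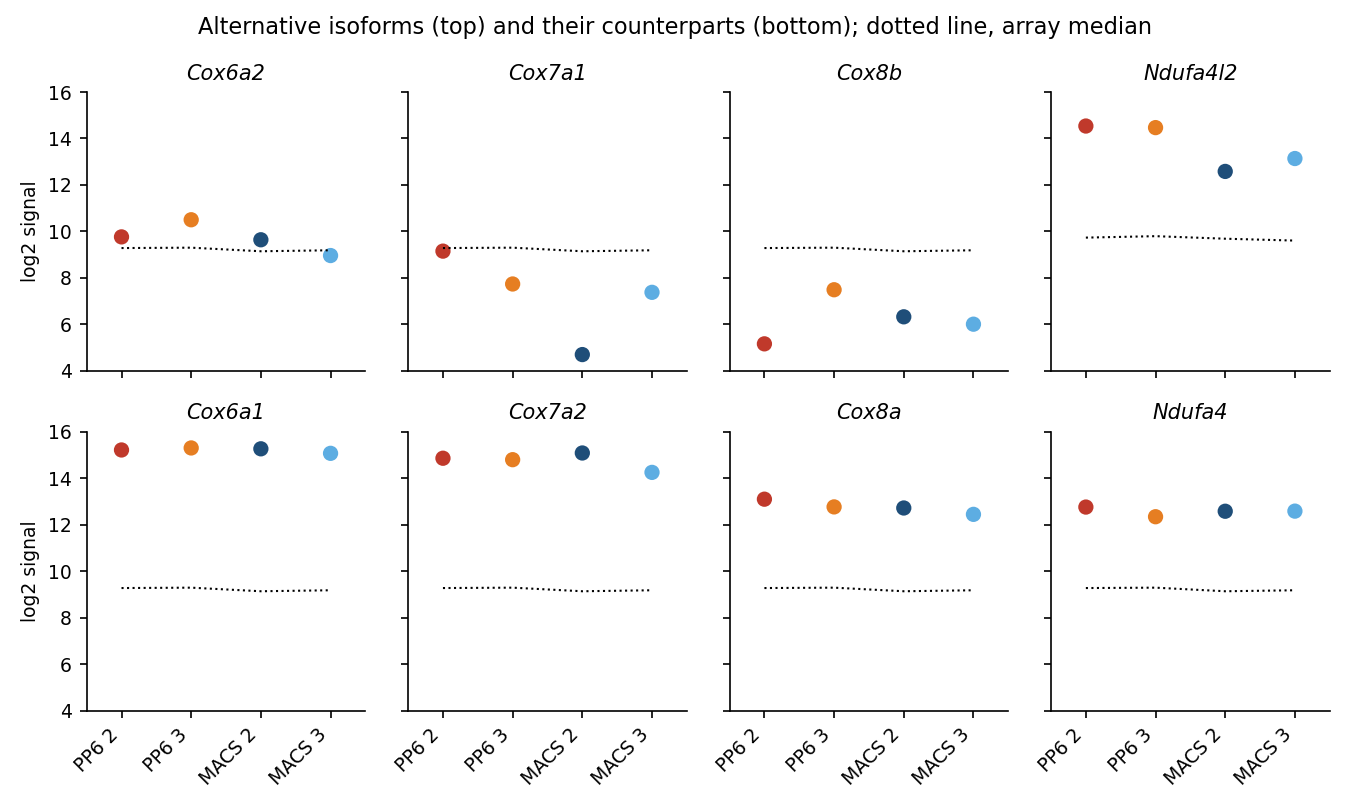
Log2 signal in PP6 replicates 2 and 3 and MACS replicates 2 and 3 for 4 alternative isoforms in the upper row and their widely expressed counterparts in the lower row. Points are single cultures and the dotted line is the median of the array type, and levels are to be read along a panel and not between panels. Cox7a1 and Cox8b lie under the line in all 4 cultures, and Ndufa4l2 is higher in both PP6 cultures.

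Promoter windows are printed for the muscle isoforms and their widely expressed counterparts, 5 of which have an entry in the RefSeq table. They run from 250 bases before to 50 bases after the start of the gene on GRCm38.p6, 5′ to 3′ along the gene. In all 5, capitals mark the NRF1 motif GCGCANGCG, the ETS motif CCGGAAG bound by GABPA and the E box CANNTG, the motif of MyoD and its relatives, on either strand.
Cox6a1, chr5:115348909-115349208, minus strand: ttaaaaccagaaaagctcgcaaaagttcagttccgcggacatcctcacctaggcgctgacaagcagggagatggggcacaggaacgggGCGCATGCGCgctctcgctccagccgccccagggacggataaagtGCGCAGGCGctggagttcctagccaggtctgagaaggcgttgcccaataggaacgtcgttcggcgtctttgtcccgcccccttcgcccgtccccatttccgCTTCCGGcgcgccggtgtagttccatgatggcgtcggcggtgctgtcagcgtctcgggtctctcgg
Cox7a2, chr9:79759804-79760103, minus strand: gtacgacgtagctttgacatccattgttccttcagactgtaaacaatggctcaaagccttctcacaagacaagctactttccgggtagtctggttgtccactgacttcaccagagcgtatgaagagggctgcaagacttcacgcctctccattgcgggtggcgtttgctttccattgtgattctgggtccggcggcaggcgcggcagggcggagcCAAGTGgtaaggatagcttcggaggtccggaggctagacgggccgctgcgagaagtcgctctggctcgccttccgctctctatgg
Cox8a, chr19:7217567-7217866, minus strand: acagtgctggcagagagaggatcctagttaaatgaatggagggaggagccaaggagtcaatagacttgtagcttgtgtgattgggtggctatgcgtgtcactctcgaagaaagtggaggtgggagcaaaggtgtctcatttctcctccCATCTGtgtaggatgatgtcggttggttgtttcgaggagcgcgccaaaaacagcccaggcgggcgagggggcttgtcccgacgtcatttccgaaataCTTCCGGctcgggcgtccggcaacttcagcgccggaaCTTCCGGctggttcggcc
Cox7a1, chr7:30183921-30184220, plus strand: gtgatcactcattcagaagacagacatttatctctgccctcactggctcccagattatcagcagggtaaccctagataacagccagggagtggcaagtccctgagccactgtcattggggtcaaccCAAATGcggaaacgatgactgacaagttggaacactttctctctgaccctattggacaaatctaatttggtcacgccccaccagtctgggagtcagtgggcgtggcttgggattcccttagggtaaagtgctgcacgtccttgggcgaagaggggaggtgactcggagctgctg
Cox8b, chr7:140900397-140900696, minus strand: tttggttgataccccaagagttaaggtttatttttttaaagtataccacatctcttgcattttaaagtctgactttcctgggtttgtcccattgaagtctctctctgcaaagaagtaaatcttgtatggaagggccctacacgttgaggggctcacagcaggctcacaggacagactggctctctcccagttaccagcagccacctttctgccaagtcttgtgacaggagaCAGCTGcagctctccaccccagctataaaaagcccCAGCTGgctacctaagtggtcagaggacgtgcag
Cox6a1 held 3 matches to the NRF1 motif, 2 of which overlap in 1 palindrome, and 1 ETS match. Cox8a held 2 ETS matches and 1 E box. Cox7a2, also a widely expressed form, held neither NRF1 nor ETS motif and 1 E box, which are the same counts as in its muscle form Cox7a1. Cox8b held 2 E boxes alone. Holding the NRF1 or ETS motif thus did not divide the widely expressed forms from the muscle forms, and an E box match is common, at 72.3% of all promoter windows in the table.

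Over the members as a whole, 74 of the 90 genes had a window in the table, 79 windows in all, out of 32851. The NRF1 motif was in 26.6% of member windows against 6.25% of all windows, and the ETS motif in 24.1% against 8.86%. At least 1 of these 2 was in 43.0% of member windows against 13.9%. The motif TNAAGGTCA of the ERR receptors was in 3.80% against 1.28%, CCAAT in 41.8% against 37.4%, and the E box in 68.4% against 72.3%. The MEF2 motif, searched by its consensus, was in 0 member windows against 3.19% of all. All motifs were searched on both strands, and a match describes the letters and not binding.

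The genes that act around the chain gave a mixed picture, and no gene of these lists passed the threshold. Cycs, which encodes the carrier cytochrome c, stood at 13.79 and 14.02 in PP6, against 14.98 and 14.58 in MACS. Its groups did not overlap, and the difference of -0.87 ± 0.23 (SE, adjusted p 0.332) runs against the direction of most subunits. Etfb, of the flavoprotein that brings in electrons from fatty acid oxidation, stood at 13.56 and 13.55 in PP6, against 12.63 and 12.91 in MACS, a difference of 0.78 ± 0.21 (adjusted p 0.330). The 28 tested assembly factors of complexes II to V had a median difference of -0.06, and Pet100, a complex IV factor, the largest by p at 0.95 ± 0.27 (adjusted p 0.334). The 18 tested genes of the tricarboxylic acid cycle and pyruvate dehydrogenase had a median of -0.03. Those with the smallest p were Fh1 at -0.53 ± 0.22 and Mdh2 at -0.47 ± 0.20 below 0. Above 0 they were Mpc1 at 0.60 ± 0.43 and Ogdh at 0.37 ± 0.32. The 73 tested mitochondrial ribosomal proteins had a median of -0.04, with MACS replicate 2 above MACS replicate 3 for 55 of them.

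The regulators of mitochondrial biogenesis had a median difference of -0.24 over 19 tested genes and of -0.17 over all 21 measured. Both PP6 cultures were below both MACS cultures for 8 of the 19, or 42.1%, against 21.9% of all tested genes, and above both for 1, or 5.26%, against 23.8%. The 1 gene of the list past an unadjusted p of 0.05 was Pprc1, a relative of the PGC-1 coactivators, at 8.59 and 9.15 in PP6 against 10.81 and 10.26 in MACS, a difference of -1.67 ± 0.45 (SE, adjusted p 0.334). Both PP6 signals of Pprc1 were below the array median, so it passed the filter through the MACS cultures alone, where it is high. Tfam, which packs and transcribes mitochondrial DNA, differed by -0.26 ± 0.27, Nrf1 by 0.19 ± 0.36 and Esrra by -0.17 ± 0.35. Ppargc1a, which encodes PGC-1 alpha, was too dim to test and differed by -0.11. Ppargc1b passed the filter through single bright values in each group, and its difference was 0.03 ± 0.93. Slc25a4, the ATP and ADP exchanger of muscle and heart, differed by 0.44 ± 0.26, and Slc25a5, the form of dividing cells, by -0.18 ± 0.23.

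Markers of other cell types also differed between the preparations. Of 20 markers of differentiated muscle, 19 were higher in PP6, with a median difference of 2.39 over all 20. Myh8, a developmental myosin, was the exception at -2.02 and was below the filter. Their summed signal was 35571 and 94779 in PP6 against 8063 and 9245 in MACS, and 5 and 1 of the 20 were below the array median in the PP6 cultures, against 17 and 15 in the MACS cultures. Of the 15 markers that passed the filter, 10 lay under that median in MACS replicates 2 and 3 alike and so passed through PP6 alone. All 15 leukocyte markers were higher in PP6, with a median difference of 2.49, and their sum was 109514 and 366148 in PP6 against 10123 and 11534 in MACS. Of the 14 that were tested, 5 passed through PP6 alone. Over all markers measured, the median difference was 1.17 for 11 fibroblast and matrix markers, 0.95 for 5 adipocyte and 0.44 for 4 brown adipocyte markers, -0.59 for 9 endothelial and -0.66 for 8 proliferation markers. All 9 endothelial markers were lower in PP6, with sums of 20552 and 22855 in PP6 against 38733 and 30772 in MACS. Of 9 myogenic precursor markers, 5 were higher in PP6 and 4 were lower. Their sum was 26224 and 20349 in PP6 against 19923 and 29958 in MACS. Both PP6 cultures had more differentiated muscle and leukocyte signal than both MACS cultures, and PP6 replicate 3 had the most. The part of the muscle and leukocyte cells in the differences of single members was not tested.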

How the data were processed

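RNA of 4 cultures, 2 per preparation, was hybridised to MOE430A and MOE430B, 8 arrays in all. The deposited values are linear signal intensities, made with MAS5 (no version stated) per the submitters' processing notes. The deposited intensity tables carry no detection calls, so a dim signal has no stated bound, and the number of arrays limits the precision.

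Probe sets were named through the arrays' annotation, with symbols updated to RefSeq (GRCm38.p6), which also gave the promoter windows. Of probe sets with 1 symbol, 20364 of 20393 on MOE430A and 14499 of 14674 on MOE430B were updated; 691 and 245 with several symbols were not used. Signals were scaled to a common 2% trimmed mean, log2-transformed and stacked, 45037 probe sets in all. The 23963 above their array's median in at least 2 cultures were tested in limma 3.58.1 (R 4.3.3; lmFit, eBayes with trend), two-sided, with Benjamini-Hochberg adjustment over all of them. The fit had 2 residual degrees of freedom, 5.67 after moderation. The fit was also run on simulated data with independent noise for each probe set and culture. Such data hold no shift shared by many genes of a culture, so that run does not cover such shifts. A gene is given by 1 probe set: tested before untested, MOE430A before MOE430B, then the highest mean log2 signal. Ratios of isoforms were compared by exact permutation of the cultures.

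Members, lists and tests were chosen with earlier results of these data known. Named genes were the muscle isoforms, their counterparts and a short list of paralogues and regulators, the 3 members of each complex with the smallest p in each direction and those with the largest and smallest difference, and the 2 genes of each other list with the smallest p in each direction; the other genes named were chosen after their values were seen. Alternatives were quantile normalization, deposited values, median centring of each array, the 20th percentile as pseudocount, a floor at the array median, testing every probe set or those past the 75th percentile, no trend, array types fitted alone, no _x_at or _s_at probe sets, the replicate number as a block, each culture left out, and the mean of all probe sets of a gene.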

Additional observations from a re-analysis of the deposited data

How the results depend on the processing

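No member probe set passed the threshold in the analysis reported or in any alternative. With p under 0.05 and not adjusted, 10 of the 151 tested member probe sets were higher and 4 lower. The 10 include the probe sets of Ndufc2 and Sdha that passed the filter through PP6 alone. Counted by gene, 5 of 84 were higher and 4 lower, close to the background of 5.81% and 5.44% of all tested genes. The higher count was 6 with arrays centred on their medians and 6 with a replicate block. The lower count was 1 without the intensity trend and 2 with a replicate block. The deviations of same-numbered cultures correlated at r = -0.03 across the tested probe sets. With 1 gap between cultures in each group, this cannot show whether cultures of the same number were paired. With each culture left out in turn, the higher count ran from 3 to 23 and the lower from 1 to 4. The same ranges were -0.00748 to 0.30 for the median difference of all members, -0.19 to 0.42 for complex I core subunits, -0.0129 to 0.22 for accessory subunits, -0.14 to 0.18 for complex II, -0.0153 to 0.24 for complex III, -0.00728 to 0.49 for complex IV and 0.0357 to 0.33 for complex V. The median of the complex IV paralogues ran from 0.40 to 0.66. The median of complex I assembly factors was -0.84 with the filter at the 75th percentile and -0.27 without _x_at and _s_at probe sets, both of which test fewer genes. Raising signals to at least the array median put Cox7a1 at 0.13. With the mean of all probe sets of a gene, Ndufc2 turned to 0.0898 and Sdha to 0.39. Each of these means takes in a probe set that passed the filter through PP6 alone. Over the tested genes among the 48 members chosen to be named and 16 settings, 32 differences changed sign, in 21 genes. Of these, 30 were not called at an unadjusted p under 0.05. Cox7a1 and Cox8b, which were not tested, are not in this count. The difference of Cox8b ran from -1.005 to 1.324 with each culture left out.

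Centring on the median moved the median of all tested genes to -0.11 and that of the members to 0.04, so the members stood 0.15 above all genes there, as in the analysis reported. Without MACS replicate 3 the median of the members minus that of all genes was -0.01. The median of all members thus rests on MACS replicate 3, and the cause of its low signals was not tested.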
